A study of Mus musculus with 9 samples.

Results

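The Hoxa cluster was described through 8 of its genes, Hoxa3, Hoxa4, Hoxa5, Hoxa6, Hoxa7, Hoxa9, Hoxa10 and Hoxa11, chosen by symbol and found by their Ensembl identifiers among the 21159 genes of the count table. All 8 had a row and at least 5 counts over the 9 libraries, and 5 of them had enough counts to be tested. The cells were lineage-depleted (Lin-) mouse bone marrow cells of the genotype Runx2fl/fl CreErt2tg/+. In this genotype both Runx2 alleles are flanked by loxP sites and a tamoxifen-inducible Cre can delete them, and all 3 groups share it. Per the labels' protocols a retrovirus carrying KMT2A-MLLT1 and eGFP was introduced into such cells, which were then plated serially in methylcellulose at intervals of 7 days. BM progenitor libraries (n = 3) were untreated and taken ahead of the first replating. The labels do not settle whether those cells carried the fusion. Runx2wt libraries (n = 3) came from transformed cells in later suspension culture given ethanol, and Runx2ko libraries (n = 3) from transformed cells given 4-hydroxytamoxifen (4-OHT) at 400 nM for 24 hours, which activates Cre. Passage, culture form and transformation cannot be told apart in this design, nor can Runx2 loss from exposure to 4-OHT and active Cre. The labels call all libraries independent biological replicates, but neither the animals nor any pooling is given.

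Hox genes encode homeodomain transcription factors that lie in clusters and are transcribed from the same strand, with the genes at the 3′ end of the cluster active in earlier and more primitive blood cells and in more anterior tissue than those at the 5′ end. In blood formation the central Hoxa genes are high in stem and early progenitor cells and are switched off as cells mature. KMT2A is a histone methyltransferase that maintains Hox expression, and its leukaemia fusions, of which KMT2A-MLLT1 (MLL-ENL) is a member, are known for holding Hoxa genes and their partner Meis1 active. Runx2, the gene targeted here, encodes a transcription factor best known in bone formation.

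All 8 genes lie on the minus strand of mouse chromosome 6 (GRCm38, GENCODE M21 gene bounds), over 76749 bases from the 3′ end of Hoxa3 to the 5′ end of Hoxa11. In cluster order from that end they are Hoxa3 (52169062 to 52213336), Hoxa4 (52189671 to 52191753), Hoxa5 (52201754 to 52204587), Hoxa6 (52206288 to 52208722), Hoxa7 (52214491 to 52221854), Hoxa9 (52223100 to 52231089), Hoxa10 (52231197 to 52240854) and Hoxa11 (52242106 to 52245810). The annotated Hoxa3 gene spans Hoxa4, Hoxa5 and Hoxa6. Because QuantSeq tags are made at the 3′ end of a transcript, what overlaps the end of a gene matters for its count. The last 300 exonic bases of Hoxa3 lie wholly under exons of the antisense gene Hoxaas2, those of Hoxa7 lie wholly under Hoxaas3, and 255 of those of Hoxa4 lie under Gm29430. The last 300 exonic bases of Hoxa5, Hoxa6, Hoxa9, Hoxa10 and Hoxa11 overlap no exon of another annotated gene, although Hoxa11os covers 800 other exonic bases of Hoxa11. Whether counting used strand is not stated, so reads of an antisense pair cannot be told apart.

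**Figure D1:**
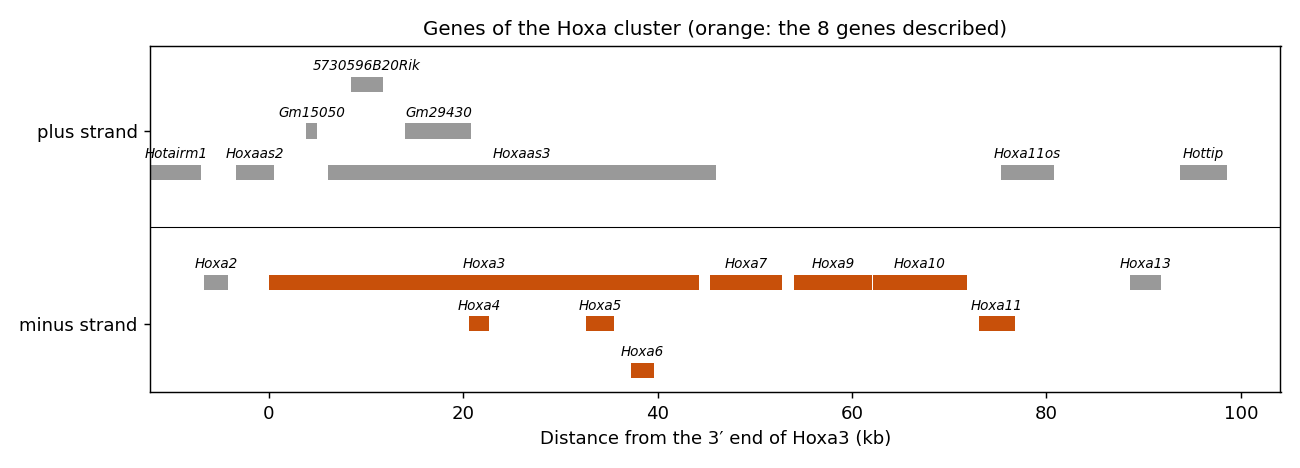
Map of the Hoxa cluster to scale, with distance from the 3′ end of Hoxa3 in kb along the horizontal axis and strand on the vertical axis. Orange bars are the 8 genes described and grey bars are other annotated genes of the cluster. All 8 lie on the minus strand, and the antisense genes Hoxaas2, Hoxaas3, Gm29430 and Hoxa11os lie on the plus strand.

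The promoters of Hoxa5 and Hoxa9, from the centre of the cluster, and of Hoxa10 and Hoxa11, whose Runx2ko levels lay furthest below Runx2wt, are shown as the 250 bases upstream of each RefSeq start (GRCm38.p6, minus strand, written along the gene), with each CG dinucleotide in capitals. Hoxa10 has 2 annotated starts in RefSeq, and the RefSeq start of Hoxa9 lies inside the longer GENCODE gene.
Hoxa5, chr6:52204588-52204837: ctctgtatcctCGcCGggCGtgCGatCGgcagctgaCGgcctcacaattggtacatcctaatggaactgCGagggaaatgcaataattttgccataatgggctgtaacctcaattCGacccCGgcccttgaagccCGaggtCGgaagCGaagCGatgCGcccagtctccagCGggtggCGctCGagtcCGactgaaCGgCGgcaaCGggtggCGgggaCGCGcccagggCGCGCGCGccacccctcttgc
Hoxa9, chr6:52227371-52227620: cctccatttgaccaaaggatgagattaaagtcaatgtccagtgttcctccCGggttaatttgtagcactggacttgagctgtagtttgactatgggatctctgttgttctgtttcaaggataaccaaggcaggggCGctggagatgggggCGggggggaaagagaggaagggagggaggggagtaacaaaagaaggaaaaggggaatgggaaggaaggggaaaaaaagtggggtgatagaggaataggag
Hoxa10, start nearer to Hoxa9, chr6:52234940-52235189: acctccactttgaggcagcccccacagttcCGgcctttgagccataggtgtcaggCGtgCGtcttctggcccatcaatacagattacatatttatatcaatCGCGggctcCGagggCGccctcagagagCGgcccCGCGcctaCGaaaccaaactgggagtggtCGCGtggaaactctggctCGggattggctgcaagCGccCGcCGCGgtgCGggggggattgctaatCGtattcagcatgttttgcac
Hoxa10, start nearer to Hoxa11, chr6:52240855-52241104: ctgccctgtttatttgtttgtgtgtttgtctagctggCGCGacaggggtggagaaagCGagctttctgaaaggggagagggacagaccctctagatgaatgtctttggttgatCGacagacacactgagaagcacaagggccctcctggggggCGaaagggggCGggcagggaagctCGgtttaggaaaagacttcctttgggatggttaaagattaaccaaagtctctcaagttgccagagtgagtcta
Hoxa11, chr6:52245811-52246060: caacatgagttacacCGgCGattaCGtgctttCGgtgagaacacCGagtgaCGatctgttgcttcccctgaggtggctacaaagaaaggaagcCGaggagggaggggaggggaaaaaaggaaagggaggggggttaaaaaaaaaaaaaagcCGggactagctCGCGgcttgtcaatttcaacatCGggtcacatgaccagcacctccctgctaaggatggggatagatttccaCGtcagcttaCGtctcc
These windows held 28 CG dinucleotides for Hoxa5, 3 for Hoxa9, 20 and 7 for the Hoxa10 starts and 13 for Hoxa11, against a median of 6 over 32851 windows of the same length. Promoter windows were found for 7 of the 8 genes, 8 windows in all, with Hoxa4 the gene without an entry. None of the 8 held TGTGGT or its complement ACCACA, the core recognised by RUNX proteins, which 14.0% of all windows held on either strand. This says only that these letters are not in these windows.

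Library totals ran from 3118594 to 5348177 counts, so that 3 counts, the most that a count of 0 allows, are worth 0.547 to 0.970 CPM (counts scaled to the size of the library) depending on the library. Such limits cover counting error only. The library that stood apart was Runx2ko replicate 1. Over log2 CPM of the tested genes it correlated at r = 0.793 to 0.816 with the remaining transformed libraries, which correlated with each other at 0.934 to 0.959. With the BM progenitor libraries, the remaining transformed libraries correlated at 0.818 to 0.864 and Runx2ko replicate 1 at 0.830 to 0.841. It had a summed level of 5335 CPM over 12 mast cell and basophil markers, all with a count, against 114 and 544 CPM in the other Runx2ko libraries and 195 to 375 CPM in Runx2wt. Its summed monocyte and macrophage markers were at 483 CPM, against 2280 and 5026 CPM in the other Runx2ko libraries. Fitted differences of the tested members that involve Runx2ko are therefore given with and without this library. The 7 of 8 listed stroma markers with a row summed to at most 19.4 CPM in any library and the 10 T cell markers to at most 68.2 CPM. The extraction protocol speaks of T-ALL cells, which the other labels do not, and these sums do not settle that label. Runx2 was still counted in Runx2ko, at 21.0, 120 and 135 CPM, against 159, 179 and 131 CPM in Runx2wt and 53.3, 46.7 and 58.8 CPM in BM progenitor. The labels do not say which exon is floxed, and a 3′ tag outside the deleted part would not report the deletion. In bulk RNA, fewer cells expressing a gene and less RNA per cell cannot be told apart.

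Hoxa3, which acts in thymus and parathyroid development, was nearly silent. Its 5 counts all fell in Runx2wt replicate 2 (1.39 CPM), and the other 8 libraries had none. Hoxa4, a patterning gene of the axial skeleton, had 1 count in BM progenitor replicate 2 (0.270 CPM), 1 and 5 counts in Runx2wt replicates 2 and 3 (0.277 and 1.39 CPM), and none in the other 6 libraries. Hoxa6, likewise a patterning gene, had no count in BM progenitor, 10, 2 and 4 counts in Runx2wt (1.88, 0.554 and 1.11 CPM) and 0, 9 and 4 counts in Runx2ko (0, 1.71 and 1.08 CPM). The Hoxa6 total was at least 5.92-fold higher in Runx2wt, and at least 5.003-fold higher in Runx2ko, than a floor of 3 counts over the BM progenitor group. These 3 genes fell below the filter on low counts and were not tested, and any transcription of Hoxa3 and Hoxa4 in Runx2ko was below the limit of detection. The tested genes to either side of Hoxa6, by contrast, were well covered.

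Hoxa5, a regulator of lung and of myeloid development, gave 7.30, 5.93 and 9.56 CPM in the BM progenitor libraries, 115, 163 and 109 CPM in the Runx2wt libraries and 34.9, 87.7 and 87.3 CPM in the Runx2ko libraries. Every transformed library lay above every BM progenitor library, and every Runx2ko library lay below every Runx2wt library. Against BM progenitor, Hoxa5 rose by 4.07 log2 units in Runx2wt (SE 0.39, edgeR adjusted p = 0.00108) and in Runx2ko by 3.20 (SE 0.38, edgeR adjusted p = 0.00236). Without Runx2ko replicate 1 that second value was 3.51 (SE 0.25, edgeR adjusted p = 9.57e-06). Between Runx2ko and Runx2wt the log2 difference of -0.87 (SE 0.34) missed the threshold (edgeR adjusted p = 0.582).

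Hoxa7, commonly active together with Hoxa9 in KMT2A-rearranged leukaemia, gave 6.02, 4.32 and 7.43 CPM in the BM progenitor libraries, 69.4, 106 and 90.1 CPM in the Runx2wt libraries and 38.8, 86.0 and 71.8 CPM in the Runx2ko libraries. Here the Runx2ko and Runx2wt libraries overlapped. Hoxa7 rose by 3.88 log2 units in Runx2wt (SE 0.35, edgeR adjusted p = 0.000793) and by 3.46 in Runx2ko (SE 0.35, edgeR adjusted p = 0.00150), both against BM progenitor. The value in Runx2ko was 3.71 without replicate 1 (SE 0.26, edgeR adjusted p = 9.41e-06). Its antisense neighbour Hoxaas3, which covers its counted end, was lower than Hoxa7 in the transformed libraries, at 5.83, 8.31 and 6.40 CPM in Runx2wt and 2.26, 6.09 and 5.96 CPM in Runx2ko. In BM progenitor the gap was smaller, with Hoxaas3 at 3.83, 3.51 and 3.19 CPM against the 6.02, 4.32 and 7.43 CPM of Hoxa7. Hoxaas3 did not pass in Runx2wt against BM progenitor (log2 fold change 0.95, SE 0.44, edgeR adjusted p = 0.171).

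Hoxa9, the member most closely tied to KMT2A-fusion leukaemia and a transcription factor of stem and progenitor cells, was the most abundant of the 8 in every library. Its levels were 32.3, 29.4 and 47.8 CPM in BM progenitor, 463, 517 and 435 CPM in Runx2wt and 169, 341 and 358 CPM in Runx2ko. The 3 groups did not overlap at any point, with Runx2ko between the others. The rise against BM progenitor was 3.69 log2 units in Runx2wt (SE 0.32, edgeR adjusted p = 0.000615) and 2.98 in Runx2ko (SE 0.31, edgeR adjusted p = 0.00150). In Runx2ko without replicate 1 it was 3.25 (SE 0.21, edgeR adjusted p = 5.78e-06). The difference of -0.70 between Runx2ko and Runx2wt (SE 0.29) did not pass (edgeR adjusted p = 0.590).

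Hoxa10, which drives proliferation of myeloid progenitors, was close to the detection limit in BM progenitor, with 18, 3 and 4 counts (3.28, 0.809 and 0.850 CPM). In Runx2wt it reached 114, 137 and 144 CPM, and in Runx2ko 28.8, 52.3 and 49.9 CPM. Again the groups did not overlap, and the highest Runx2ko library lay below the lowest Runx2wt library by a wide margin. Hoxa10 rose by 6.22 log2 units in Runx2wt (SE 0.49, edgeR adjusted p = 0.000411) and by 4.63 in Runx2ko (SE 0.47, edgeR adjusted p = 0.00150), or by 4.83 without Runx2ko replicate 1 (SE 0.38, edgeR adjusted p = 1.53e-05). Both values rest on few BM progenitor counts: without BM progenitor replicate 1, which held 18 of them, they were 7.26 (edgeR adjusted p = 0.000487) and 5.67 (edgeR adjusted p = 0.00187). Between the transformed groups the difference was -1.59 (SE 0.37, edgeR adjusted p = 0.579).

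Hoxa11, a limb and uterus patterning gene at the 5′ side of the cluster, was present in Runx2wt alone at more than a trace. It had 0, 0 and 1 count in BM progenitor, 94, 74 and 59 counts in Runx2wt (17.7, 20.5 and 16.4 CPM) and 0, 0 and 5 counts in Runx2ko (0, 0 and 1.36 CPM). Hoxa11 passed the filter on low counts through the Runx2wt libraries alone, so a high Runx2wt level was a condition of its being tested. The Runx2wt total was 252 times that of BM progenitor, with a 95% counting interval of 44.8 to 9997 that reflects the single BM progenitor count. The rise passed the test (log2 fold change 7.49, SE 1.14, edgeR adjusted p = 0.00581), but not without BM progenitor replicate 3, the library holding that count (edgeR adjusted p = 0.0502). The Runx2ko total was 0.0229 of the Runx2wt total (95% counting interval 0.00737 to 0.0542). The corresponding log2 difference of -5.31 (SE 0.95) had an edgeR adjusted p of 0.442, the smallest value in that comparison, shared by 7 genes of which Hoxa11 was the seventh by unadjusted p. Against BM progenitor, Hoxa11 in Runx2ko did not pass (log2 fold change 2.18, SE 1.49, edgeR adjusted p = 0.337), either with all libraries or without Runx2ko replicate 1 (2.62, SE 1.40, edgeR adjusted p = 0.184). Its sign turned without Runx2ko replicate 3 (-1.81, edgeR adjusted p = 0.527).

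**Figure D2:**
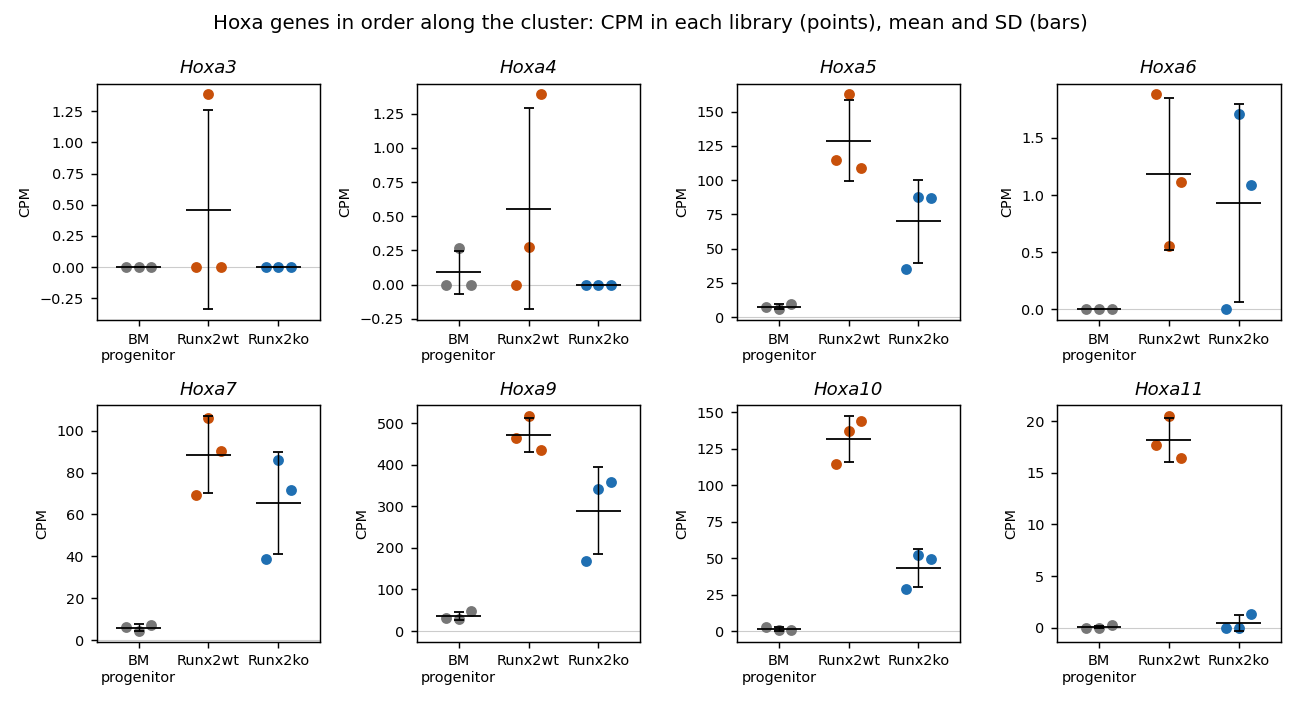
CPM of each gene in the 9 libraries, with 1 panel per gene in cluster order, a linear scale of its own and the 3 groups along the horizontal axis. Points are libraries (replicates 1 to 3 from left to right), long horizontal lines are group means and bars are SD (n = 3). For Hoxa5, Hoxa9, Hoxa10 and Hoxa11 every Runx2ko point lies below every Runx2wt point, whereas for Hoxa7 the groups overlap.

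Since a tag is counted once per transcript end, levels were ordered between genes without scaling by length. In BM progenitor the order was Hoxa9 (mean 36.5 CPM), Hoxa5 (7.60), Hoxa7 (5.92) and Hoxa10 (1.65), with only the Hoxa5 and Hoxa7 libraries overlapping among these neighbours, and with the other 4 genes at 0.270 CPM or less. In Runx2wt it was Hoxa9 (471 CPM), Hoxa10 (132), Hoxa5 (129), Hoxa7 (88.6) and Hoxa11 (18.2), in which Hoxa10 and Hoxa5 overlapped. In Runx2ko it was Hoxa9 (289 CPM), Hoxa5 (70.0), Hoxa7 (65.6) and Hoxa10 (43.7), in which Hoxa5 overlapped with Hoxa7 and Hoxa7 with Hoxa10. Without Runx2ko replicate 1 those means were 349, 87.5, 78.9 and 51.1 CPM, in the same order and with no neighbours overlapping. Thus Hoxa10 stood behind Hoxa5 and Hoxa7 in BM progenitor and Runx2ko means. In Runx2wt it was ahead of Hoxa7 in every library. It was ahead of Hoxa5 only in Runx2wt replicate 3 (144 against 109 CPM), and not in replicate 1 (114 against 115) or replicate 2 (137 against 163).

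In Runx2wt against BM progenitor 5 of the 5 tested members rose, where 8.28% of all 11196 tested genes were called higher. For Hoxa11, tested only through its Runx2wt counts, the direction was set by the filter. By unadjusted p the members took ranks 7 (Hoxa10), 12 (Hoxa9), 14 (Hoxa7), 18 (Hoxa5) and 148 (Hoxa11) among those genes. In Runx2ko against BM progenitor 4 of 5 rose and Hoxa11 did not pass, where 10.0% of all genes were called higher. These comparisons share the BM progenitor libraries. The summed level of the 8 genes was 48.9, 40.7 and 65.8 CPM in BM progenitor, 781, 945 and 797 CPM in Runx2wt and 271, 569 and 569 CPM in Runx2ko. The lowest of the Runx2ko sums belonged to replicate 1, the library with the high mast cell and basophil markers. Marker levels moved between the groups as well. From BM progenitor to Runx2wt, 9 neutrophil markers went from sums of 11973 to 16296 CPM to sums of 1262 to 4191 CPM, and the 12 mast cell and basophil markers from 1215 to 1370 CPM to 195 to 375 CPM. The latter did not move as one: of 10 tested, 1 rose, 4 fell and 5 did not pass, where 8.28% of all tested genes were called higher and 5.23% lower. Mean Mcpt8 went from 384 to 4.30 CPM and mean Cma1 from 0.292 to 51.1 CPM. The sums of 10 stem and progenitor markers went from 343 to 382 CPM to 65.4 to 92.9 CPM. Of 7 tested stem and progenitor markers 0 rose, 3 fell and 4 did not pass. Of 9 tested neutrophil markers 0 rose, 3 fell and 6 did not pass. In Runx2ko the neutrophil sums spanned 614 to 10280 CPM, the mast cell and basophil sums 114 to 5335 CPM and the stem and progenitor sums 84.1 to 940 CPM. Gata2 is in both the mast cell and basophil list and the stem and progenitor list. It was at a mean of 118 CPM in BM progenitor and at 567 CPM in Runx2ko replicate 1, the library with the sum of 940 CPM. The part of these markers in the Hoxa differences was not tested.

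Between Runx2ko and Runx2wt, 0 of the 5 tested members passed in edgeR at an adjusted p of 0.05, as did 0.0% of all 11196 genes. All 5 fitted differences were negative, with a median of -0.87 against 0.01 over all genes tested. At an unadjusted p under 0.05, 4 of 5 members were lower in Runx2ko (Hoxa5, Hoxa9, Hoxa10 and Hoxa11), where 2.78% of all genes were. The same 4 genes had all 3 Runx2ko libraries below all 3 Runx2wt libraries, where 4.73% of all genes had. Hoxa11 was tested only through its Runx2wt counts, so its part in these counts was set by the filter. DESeq2 called 2 members lower, Hoxa10 (log2 difference -1.59, SE 0.36, DESeq2 adjusted p = 0.00836) and Hoxa11 (-5.40, SE 0.89, DESeq2 adjusted p = 9.91e-06), where it called 0.104% of its 12467 genes lower. The call for these genes thus depended on the tool.

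The size of the Runx2ko difference was uneven along the cluster. It was -0.87 for Hoxa5, -0.43 for Hoxa7 (SE 0.31, edgeR adjusted p = 0.740) and -0.70 for Hoxa9, then -1.59 for Hoxa10 and -5.31 for Hoxa11. Without Runx2ko replicate 1 the central genes moved closer to Runx2wt, to -0.56 (SE 0.23, edgeR adjusted p = 0.567) for Hoxa5, -0.16 (SE 0.23, edgeR adjusted p = 0.919) for Hoxa7 and -0.43 (SE 0.20, edgeR adjusted p = 0.654) for Hoxa9. The 5′ genes moved closer as well, to -1.37 for Hoxa10 (SE 0.30, edgeR adjusted p = 0.217) and -4.89 for Hoxa11 (SE 0.81, edgeR adjusted p = 0.102). No member passed in edgeR in that fit either. The low Hoxa10 and Hoxa11 levels were therefore measured in the 2 Runx2ko libraries that resembled the Runx2wt libraries as well.

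**Figure D3:**
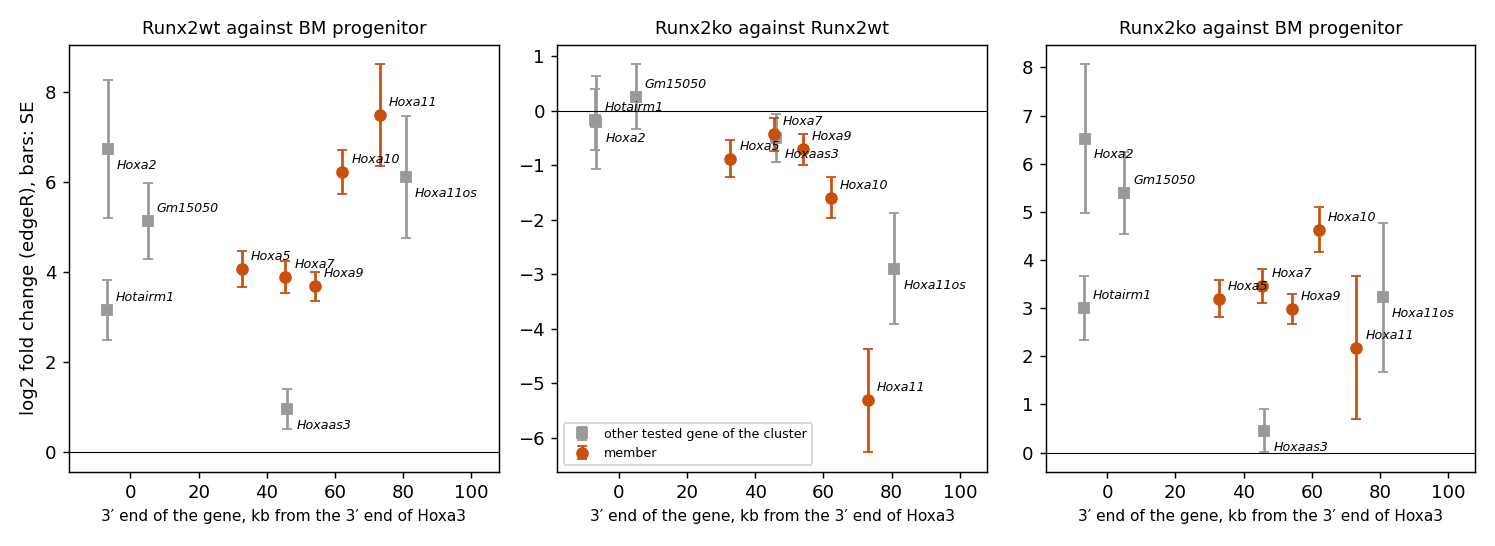
Fitted log2 fold changes of the tested genes of the cluster (edgeR; bars are SE) against the position of the 3′ end of each gene in kb from the 3′ end of Hoxa3 (negative on the side of Hoxa2), with 1 panel per comparison and a vertical scale for each. Orange circles are members and grey squares are other tested genes of the cluster. In the middle panel Hoxa10 and Hoxa11 lie at -1.59 and -5.31, while Hotairm1, Hoxa2 and Gm15050 at the 3′ end lie near 0. The fits for Hoxa2, Hoxa11 and Hoxa11os rest on a group with at most 1 count.

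The make-up of the Hoxa counts within a library does not depend on library scaling, so it was used to compare members with each other. Hoxa9 made up 70.3% ± 3.66 (SD, n = 3) of the summed counts of the 8 genes in BM progenitor, 56.2% ± 2.70 in Runx2wt and 61.7% ± 1.53 in Runx2ko. Hoxa10 made up 3.33% ± 2.95, 15.7% ± 2.03 and 9.52% ± 0.96 in the same order, and Hoxa11 0.108% ± 0.186, 2.16% ± 0.10 and 0.0794% ± 0.137. The lowest Hoxa10 share in Runx2wt was 14.5% and the highest in Runx2ko was 10.6%. For Hoxa11 the lowest in Runx2wt was 2.06% and the highest in Runx2ko was 0.238%. The Hoxa7 share was higher in Runx2ko, at 14.0% ± 1.28 against 10.5% ± 1.38, again without overlap. The Hoxa5 share hardly moved, at 14.7% ± 0.22, 15.2% ± 1.83 and 14.5% ± 1.45. In a two-sided exact permutation test of Runx2ko against Runx2wt, the shares of Hoxa7, Hoxa9, Hoxa10 and Hoxa11 each gave p = 0.1, the smallest value that 3 against 3 libraries allow (0.125 after Benjamini-Hochberg adjustment over 5 shares), and Hoxa5 gave p = 0.6. The design cannot reach 0.05, and shares of a whole are not independent of each other.

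**Figure D4:**
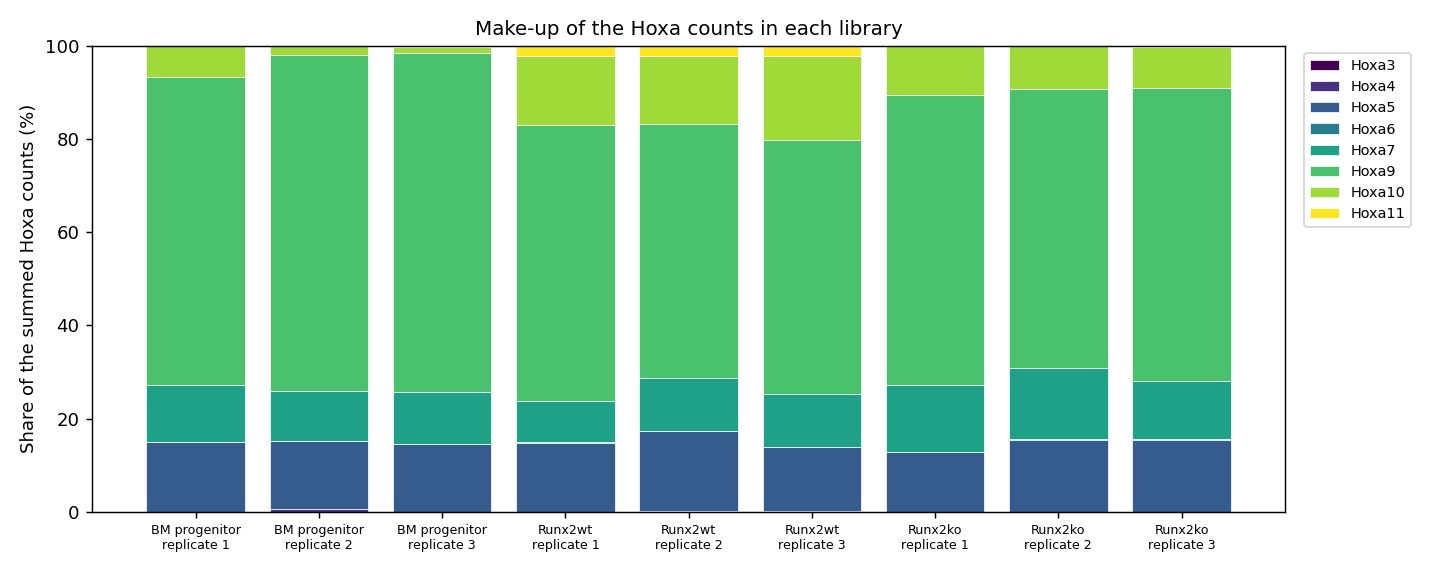
Stacked bars of the share of each gene in the summed counts of the 8 Hoxa genes, in percent, with 1 bar per library. The Hoxa10 segment spans 14.5% to 18.1% in Runx2wt and 8.76% to 10.6% in Runx2ko, and the Hoxa11 segment at the top is visible in the Runx2wt libraries.

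Set against Hoxa9 in the same library, Hoxa10 had 10.2, 2.75 and 1.78 counts per 100 Hoxa9 counts in BM progenitor, 24.7, 26.6 and 33.1 in Runx2wt and 17.0, 15.4 and 13.9 in Runx2ko. The Runx2ko libraries lay between the other groups without overlap, and replicate 1 was the highest of the 3, so the low ratio did not come from that library. Hoxa11 had 3.82, 3.97 and 3.77 counts per 100 Hoxa9 counts in Runx2wt, a narrow range, and 0, 0 and 0.379 in Runx2ko. Hoxa5 per 100 Hoxa9 counts was 24.7, 31.5 and 25.0 in Runx2wt and 20.7, 25.7 and 24.4 in Runx2ko, which overlapped. Hoxa7 per 100 Hoxa9 counts was 14.99, 20.5 and 20.7 in Runx2wt and 23.0, 25.2 and 20.1 in Runx2ko, which overlapped too.

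**Figure D5:**
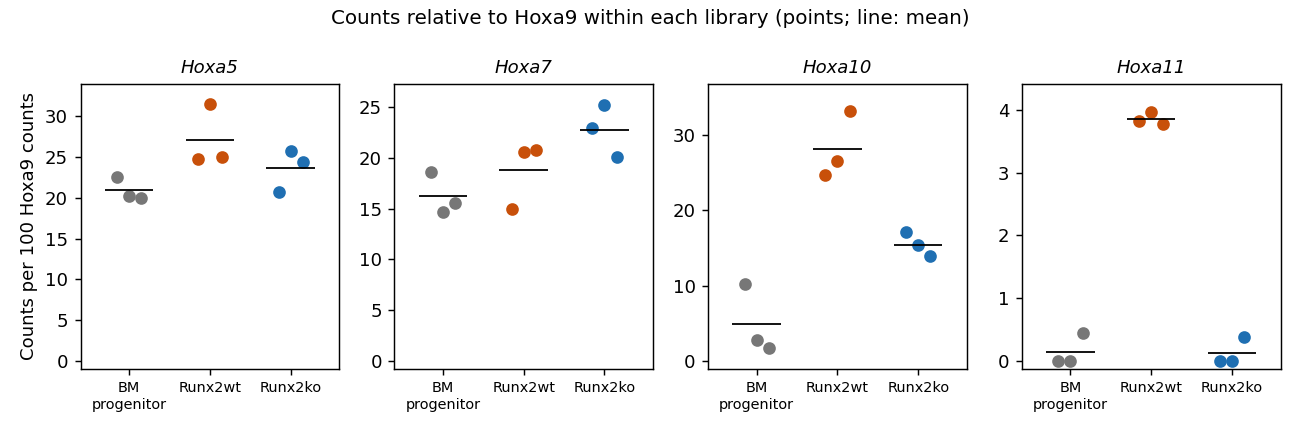
Counts of Hoxa5, Hoxa7, Hoxa10 and Hoxa11 per 100 Hoxa9 counts of the same library (points, replicates 1 to 3 from left to right; lines are group means), with a vertical scale for each panel. Hoxa10 lies at 13.9 to 17.0 in Runx2ko and at 24.7 to 33.1 in Runx2wt, and Hoxa11 lies at 3.77 to 3.97 in Runx2wt and at most at 0.379 in Runx2ko.

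The remaining genes of the cluster did not all follow its central members. At the 3′ end, Hoxa2, which acts in hindbrain patterning, had no count in BM progenitor, 10, 20 and 7 counts in Runx2wt and 1, 22 and 12 in Runx2ko. The Hoxa2 total in Runx2wt was at least 13.7-fold higher than a floor of 3 counts over BM progenitor (edgeR adjusted p = 0.0322), but the call was lost whichever of the 6 compared libraries was left out (highest edgeR adjusted p 0.0980). The myeloid non-coding gene Hotairm1 rose by 3.17 log2 units in Runx2wt (SE 0.67, edgeR adjusted p = 0.0186) and Gm15050 by 5.13 (SE 0.85, edgeR adjusted p = 0.00809). The Hotairm1 call was lost without any 1 BM progenitor library or without Runx2wt replicate 1 or 2 (highest edgeR adjusted p 0.0863), and that of Gm15050 without BM progenitor replicate 3 (edgeR adjusted p = 0.0552). Gm15050 was at 6.10 without BM progenitor replicate 2 and at 4.49 without replicate 1. Each of Hoxa2, Hotairm1 and Gm15050 overlapped between Runx2ko and Runx2wt. These genes passed the filter on low counts through transformed libraries alone, so the direction of their rise was set by the filter.

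At the 5′ end, Hoxa11os, the antisense partner of Hoxa11, had 0, 1 and 0 counts in BM progenitor, 33, 45 and 10 in Runx2wt and 0, 2 and 9 in Runx2ko. Hoxa11os passed the filter on low counts through the Runx2wt libraries alone, so a high Runx2wt level was a condition of its being tested. Its Runx2ko libraries lay below all Runx2wt libraries in CPM, as in 4.73% of all tested genes. It rose in Runx2wt (log2 fold change 6.12, SE 1.36, edgeR adjusted p = 0.0222), a call lost without BM progenitor replicate 1, 2 or 3 or Runx2wt replicate 2 (highest edgeR adjusted p 0.104). Its Runx2ko difference of -2.89 (SE 1.02) did not pass (edgeR adjusted p = 0.579), and was -2.41 without Runx2ko replicate 1 (edgeR adjusted p = 0.528). Beyond it, Hoxa13 had 2 counts, both in Runx2ko replicate 3, and the non-coding gene Hottip had none in any library.

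Of 33 other Hox genes listed, 16 had a row in the table and 3 were tested. Hoxa2 and Hoxb13 rose in Runx2wt against BM progenitor, where 8.28% of all tested genes were called higher. Both passed the filter on low counts through transformed libraries alone, so the direction of their rise was set by the filter. Hoxb4, a gene of blood stem cells, did not pass (log2 fold change 0.26, SE 0.62, edgeR adjusted p = 0.797). Hoxb13, a gene of prostate and tail development at the 5′ end of its own cluster, had no count in BM progenitor, 92, 55 and 40 counts in Runx2wt and 0, 23 and 11 in Runx2ko. Its Runx2wt total was at least 69.2-fold higher than a floor of 3 counts over BM progenitor (edgeR adjusted p = 0.0127), a call lost without BM progenitor replicate 1, 2 or 3 (highest edgeR adjusted p 0.0590). Hoxb13 would not have passed the filter on low counts without Runx2wt libraries, so counts there were a condition of its being tested. Every Runx2ko library lay below every Runx2wt library, as in 4.73% of all tested genes. The log2 difference of -2.50 (SE 0.86) did not pass (edgeR adjusted p = 0.579), and was -1.97 without Runx2ko replicate 1 (edgeR adjusted p = 0.286). Hoxa members thus made up most of the Hox genes that could be tested.

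Hox proteins bind DNA together with TALE homeodomain partners. In Runx2wt against BM progenitor 8.28% of all tested genes were called higher and 5.23% lower, which is the background for the counts of such partners, of targets and of regulators. Of 11 TALE genes listed, 9 were tested. In Runx2wt against BM progenitor 1 of them, Meis1, rose, 1 fell and 7 did not pass. Meis1, a partner of Hoxa9 in leukaemia, gave 26.6, 23.2 and 21.0 CPM in the BM progenitor libraries, 183, 259 and 147 CPM in the Runx2wt libraries and 266, 139 and 154 CPM in the Runx2ko libraries. Meis1 rose by 3.05 log2 units in Runx2wt (SE 0.31, edgeR adjusted p = 0.00124), and unlike Hoxa10 and Hoxa11 its transformed groups overlapped.

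Of 15 genes listed as targets of Hoxa9 and Meis1, 14 were tested, and in Runx2wt against BM progenitor 2 rose, 2 fell and 10 did not pass, with a median log2 fold change of -0.18 against 0.01 over all genes. Flt3, a receptor of early progenitors, fell by 5.48 log2 units (SE 1.03, edgeR adjusted p = 0.0126), from 36, 38 and 36 counts to 2, 0 and 0. Flt3 passed the filter on low counts through the BM progenitor libraries alone, so the direction of its change was set by the filter. Cd34, a surface marker of progenitors, fell by 3.51 (SE 0.95, edgeR adjusted p = 0.0402). Each of these falls lost its call without any 1 BM progenitor library or without Runx2wt replicate 2, and that of Cd34 without Runx2wt replicate 3 as well (highest edgeR adjusted p 0.136). Erg, a transcription factor of stem cells, rose by 0.89 (SE 0.22, edgeR adjusted p = 0.0326), a call lost whichever of the 6 compared libraries was left out (highest edgeR adjusted p 0.118) and under 3 other alternatives. Most genes of the list did not pass.

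Of 38 chromatin regulators of the cluster listed, 35 were tested. In Runx2wt against BM progenitor 7 rose, 3 fell and 25 did not pass, and in Runx2ko against BM progenitor 4 rose, 1 fell and 30 did not pass, where 10.0% of all tested genes were called higher and 7.14% lower. Kmt2a rose by 1.31 log2 units in Runx2wt (SE 0.24, edgeR adjusted p = 0.0113), Kdm6b, a demethylase of the Polycomb mark, by 1.05 (SE 0.25, edgeR adjusted p = 0.0266), and Ezh1, a Polycomb methyltransferase, by 0.89 (SE 0.23, edgeR adjusted p = 0.0379). The Kmt2a call was lost without BM progenitor replicate 1 or 3 (highest edgeR adjusted p 0.0696), and that of Kdm6b without any 1 BM progenitor library or Runx2wt replicate 2 or 3 (highest 0.0990). That of Ezh1 was lost without any of 5 compared libraries, the exception being BM progenitor replicate 1 (highest edgeR adjusted p 0.134), and under 2 other alternatives. Whether Kmt2a tags include any from the retrovirus was not tested. In Runx2ko against Runx2wt, 0 genes of these 4 lists passed in edgeR, as did 0.0% of all 11196 tested genes. That count is therefore not particular to the lists.

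Genes were also ranked by the correlation of their log2 CPM with Hoxa9 over the 9 libraries, which share library and depth between the genes compared. Hoxa5 (Pearson r = 0.997) and Hoxa7 (r = 0.992) took the first 2 ranks of 11196 genes, Hoxa10 took rank 21 (r = 0.970) and Hoxa11 rank 1748 (r = 0.716). Among other genes with a mean of at least 10 CPM, those nearest to Hoxa9 included Gpr137 (r = 0.988), Acadsb, an enzyme of branched-chain amino acid breakdown (r = 0.987), Gsn, the actin-severing protein gelsolin (r = 0.983), and Gmip (r = 0.980). These 4 rose in Runx2wt against BM progenitor. They were picked by their likeness to Hoxa9 over the same libraries, so that rise follows from the choice and is not a separate result. The call for Gmip was lost without any 1 BM progenitor library (highest edgeR adjusted p 0.0639). Gsn rose from a mean of 52.0 CPM to 939 CPM (log2 fold change 4.17, SE 0.54, edgeR adjusted p = 0.00341), and in Runx2ko its mean was 657 CPM, or 883 CPM without replicate 1.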

How the data were processed

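RNA was measured by QuantSeq, a 3′ tag method, from 500 ng of total RNA per library. Deposited by the authors were a raw count table, used here, and a normalized table, whose ratio to the raw counts was 1 constant per library. GRCm38 is the build, and STAR, FastQC and DESeq2 are the tools, that the submitters' processing notes name. Versions, the counting program and the use of strand were not given in the sources used here. Symbols from GENCODE M21 matched 21042 of 21159 identifiers. Tests of the counts used edgeR 4.0.16 under R 4.3.3 (quasi-likelihood F-test, TMM factors, filterByExpr, which left 11196 genes) in 1 fit over the 9 libraries, and p-values were adjusted over all tested genes by Benjamini-Hochberg (threshold 0.05). Standard errors were derived from F, and CPM used TMM-scaled totals of tested genes. Alternatives used DESeq2 1.42.0 and limma 3.58.1 (voom, or log2 of the authors' values plus 1), other scaling and filters, a replicate block and leaving out each library. The edgeR fit was tested on simulated data. Replicate libraries differed by more than sampling noise, with a chi-square of 4.25 or more per gene, and were kept as separate samples.

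The members and gene lists were chosen with earlier results of these data known, and the permutation tests of shares after their values were seen. Named genes were all members; up to 3 of each list with the largest change among those passing in Runx2wt against BM progenitor; the 5 genes most correlated with Hoxa9; genes overlapping members; and Runx2. The other genes of the cluster were named after their values were seen. Some genes that this rule takes are not reported here.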

Additional observations from a re-analysis of the deposited data

How the results depend on the processing

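Over 18 alternatives, 89 of 90 member results in Runx2wt against BM progenitor kept their direction and side of the threshold, the exception being Hoxa11 without BM progenitor replicate 3 (adjusted p = 0.0502). In Runx2ko against Runx2wt 88 of 90 did, and DESeq2 called the other 2, Hoxa10 and Hoxa11, so that its count of members was 2 in place of 0. In Runx2ko against BM progenitor 88 of 89 did, and Hoxa11 reversed to -1.81 without Runx2ko replicate 3 (up to 3.97 on leaving out each library in turn); with only the 6 compared libraries Hoxa11 was not tested there. Counts over all genes moved more. For Runx2wt against BM progenitor, 1513 genes passed, 3679 with only the 6 compared libraries, 922 with the replicate block, and 209 to 3256 on leaving out each library, the highest without Runx2ko replicate 1. For Runx2ko against BM progenitor, 1924 passed, 1262 with only the 6 compared libraries, 1120 with the block, and 405 to 3311 on leaving out each library, again the highest without Runx2ko replicate 1. For Runx2ko against Runx2wt, 0 passed in edgeR (886 at an unadjusted p under 0.05), 48 in DESeq2, and 0 to 5 on leaving out each library, the 5 without Runx2ko replicate 1. Same-numbered libraries did not deviate together (r = -0.066 to 0.072 over 9 pairs, against -0.115 to 0.140 for 18 other pairs), so the numbers were not taken as pairs, and the block changed no member's call. Scaling by totals alone moved the median log2 fold change of all genes from 0.01 to -0.09 in Runx2wt against BM progenitor and the share of calls that were higher from 61.3% to 50.5%; in Runx2ko against BM progenitor that share went from 58.5% to 50.3%, and limma-voom gave 52.1% and 47.4%. Among other named genes, the Runx2wt calls of Kdm6b, Cd34, Flt3, Kmt2a, Hotairm1, Gm15050, Gmip, Erg and Ezh1 were each lost on leaving out at least 1 library. Erg was also lost with totals-only scaling (adjusted p = 0.0529), no filter (0.0621) and the block (0.0535), and Ezh1 with totals-only scaling (0.0505) and the block (0.0571). The filter on low counts left Hoxa3, Hoxa4 and Hoxa6 untested; without it none passed in Runx2wt against BM progenitor (adjusted p = 0.354, 0.504 and 0.0794). Hoxa11 in BM progenitor and Runx2ko was at or near the floor.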
